A study of Mus musculus with 12 samples.

Results

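The genes described here are 9 members of the axis through which the uterine epithelium signals to the stroma beneath it in early pregnancy: Ihh, Ptch1, Smo, Gli1, Gli2, Gli3, Hhip, Nr2f2 (the gene of COUP-TFII) and Hand2. They were chosen by name with earlier results of these data known, as were the gene lists below. Counts set against the shares of all genes are therefore descriptions. All 9 were found among the 19938 genes measured, each by 1 probe set that no other gene shares. RNA was measured on 12 Affymetrix mouse gene arrays, 3 for each of 4 groups, from uterine horns and oviducts of mice in preimplantation pregnancy. The E2 groups received estradiol under the skin at 10 µg/kg in 100 µl of sesame oil on each day from 0.5 to 2.5, and the oil groups received the same oil with 0 µg/kg. Tissue was collected on day 3.5 and flushed, and whole organs with all their cell layers were extracted. All 4 groups are therefore pregnant and oil-injected, and by their labels they differ in tissue and in E2. The labels state no strain, age or genotype and do not say how many animals a sample holds, and other doses were not analysed here. The question is which genes of the axis responded to the added E2, and whether they did so in both organs.

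Indian hedgehog is a secreted ligand of the luminal and glandular epithelium that is induced by progesterone before implantation. It binds Ptch1 on stromal cells, which releases Smo and lets the Gli factors activate targets, among them Ptch1, Gli1 and Hhip themselves. In the uterine stroma COUP-TFII and Hand2 act on the progesterone side of the balance with estrogen, and Hand2 restrains stromal fibroblast growth factors that would otherwise drive epithelial proliferation.

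Values are log2 intensities, so a difference of 1 is a doubling of the fluorescence of the same probe set, and levels of different genes are not compared. Differences are given with their standard error (SE) and with the Benjamini-Hochberg adjusted p of limma over all 19938 genes, and a gene is called where that p is under 0.05. Intervals are 95% intervals of single genes. Only 3 arrays a group limit the precision. The labels call the samples biological replicates without saying which came from separate animals, so the p-values measure the spread between these samples.

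The arrays had median intensities from 89.5 to 92.9. Both oil replicate 3 arrays stood apart from their groups: 177 genes in uterus and 302 in oviduct lay over 1 log2 from the mean of the other 2 arrays, against 8 to 62 on the other 10 arrays. On the oil oviduct replicate 3 array a list of 5 luteal and ovarian genes had a mean of 9.12, against 5.21 and 5.89 on the other oil oviduct arrays. The smooth muscle list was at 11.07 on the oil uterus replicate 3 array and at 10.52 and 10.67 on the others of that group. The tissue labels were borne out by ciliated-cell genes, with 6 of 6 higher in oviduct in oil, and by Hoxa11, a uterine patterning gene that was 3.92 lower in oviduct (SE 0.097, adjusted p = 4.7e-10). Y-linked genes, which these females lack, reached 7.50 on the log2 scale through Sry and 5.36 without it, with a median of 3.69. Differences at such low levels are uncertain in size. Below, a value near the level of the Y-linked genes is one near the 5.36 reached without Sry, not near their median.

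In uterus, E2 lowered 7 of the 9 genes and raised 0. Over all genes 14.3% were called lower and 12.4% higher. The median difference of the 9 was -0.66, against -0.00070 for all genes. The 3 genes known as direct readouts of hedgehog signalling had the largest falls: Hhip fell 4.77-fold, Gli1 3.65-fold and Ptch1 3.08-fold. Ihh, Hand2, Gli3 and Nr2f2 fell by less, and Smo and Gli2 were not called. The count was 7 of 9 without both oil replicate 3 arrays as well. Bulk RNA cannot tell fewer cells of a type from less RNA per cell.

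**Figure D1:**
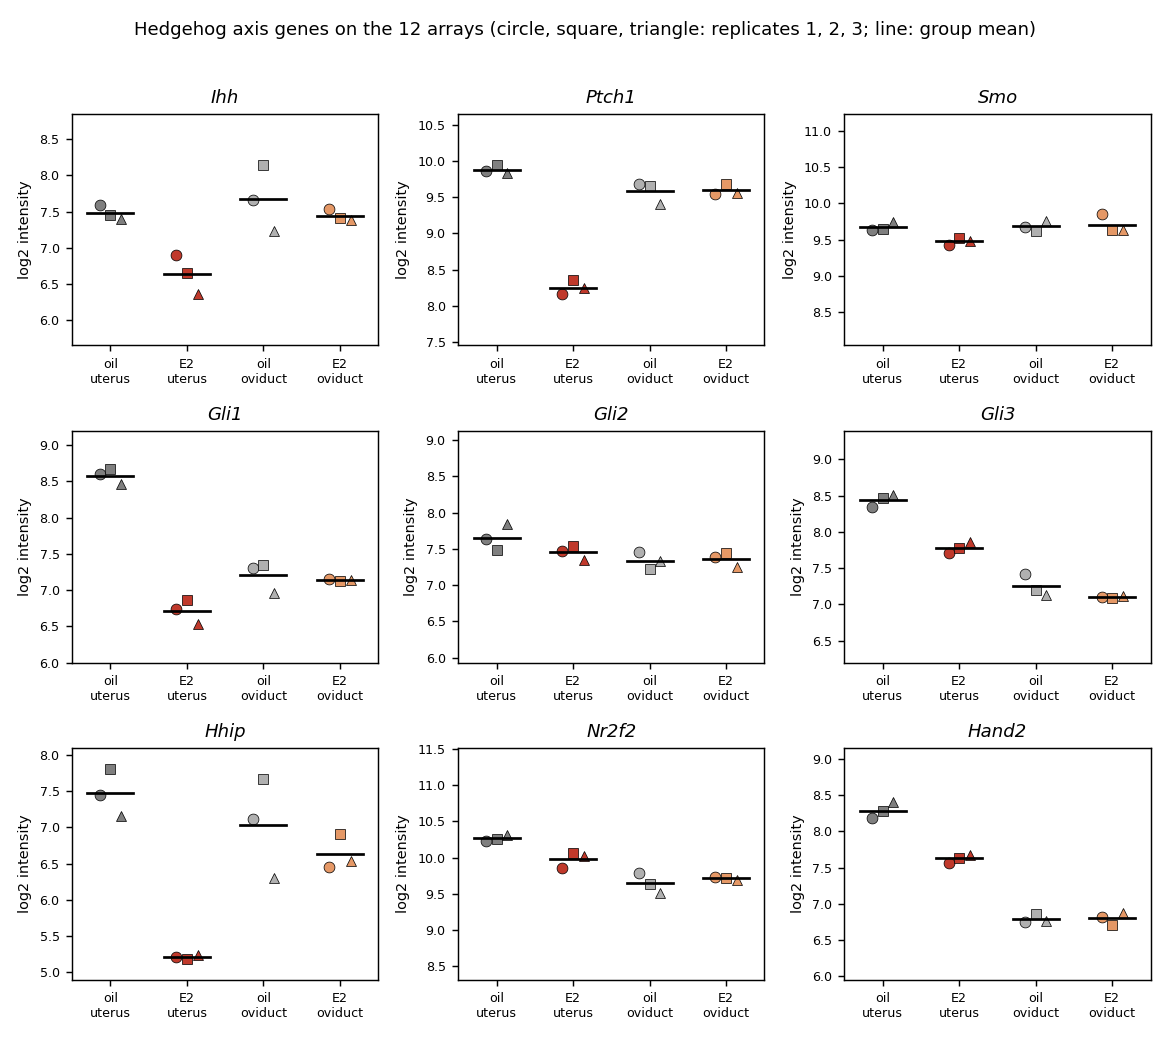
Log2 intensity (vertical axis) of the 9 genes on every array, by tissue and treatment (horizontal axis), with 1 point per array, circles, squares and triangles for replicates 1, 2 and 3, and a line at each group mean. For Hhip, Gli1, Ptch1, Ihh and Smo the 3 E2 uterus arrays lie below every other array, while the oviduct groups overlap.

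Ihh, the ligand (chr1:74945315-74951672, build GRCm38.p6), read 7.58, 7.44 and 7.40 in the 3 oil uterus samples and 6.90, 6.65 and 6.36 in the 3 E2 uterus samples. All E2 samples were below all oil samples, and the E2 samples spread more. The difference was -0.84 (SE 0.19, adjusted p = 0.0068), a 1.79-fold fall. Without both oil replicate 3 arrays it was -0.88 (adjusted p = 0.0029).

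Ptch1 (chr13:63508328-63573460), the receptor that holds Smo in check and a target of the pathway, read 9.85, 9.94 and 9.83 in oil uterus and 8.16, 8.35 and 8.24 in E2 uterus. The groups were separated by more than 1 log2, with a difference of -1.62 (SE 0.085, adjusted p = 2.3e-07). Hhip (chr8:79965850-80058060), a membrane protein that binds hedgehog ligand and dampens the signal, read 7.44, 7.80 and 7.16 in oil uterus and 5.21, 5.19 and 5.24 after E2. The E2 samples were all near the level of the Y-linked genes, so the fall of 2.25 (SE 0.28, adjusted p = 0.00011) is uncertain in size. Smo (chr6:29735497-29761366), the transducer that Ptch1 controls, read 9.64, 9.65 and 9.74 in oil and 9.43, 9.53 and 9.49 in E2. The Smo groups did not overlap, but the difference of -0.19 (SE 0.075, interval -0.36 to -0.028) was not called (adjusted p = 0.082). With a filter on dim genes, which leaves 11021 genes to test, its adjusted p was 0.042, and with a trended variance 0.045.

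The promoter windows of Ptch1 and Hhip, the receptor and the binding protein that fell together, and of Hand2, the one of the 3 with a match, are shown from 250 bases before to 50 after a RefSeq start site of GRCm38.p6. Each is written 5′ to 3′ on the gene's strand, in lower case, with capitals marking the E-box searched for, CATCTG. Ptch1 is at chr13:63565686-63565985 (minus strand), at a start site inside the annotated span of the gene; Hhip at chr8:80057959-80058258 (minus strand); Hand2 at chr8:57320733-57321032 (plus strand).
Ptch1: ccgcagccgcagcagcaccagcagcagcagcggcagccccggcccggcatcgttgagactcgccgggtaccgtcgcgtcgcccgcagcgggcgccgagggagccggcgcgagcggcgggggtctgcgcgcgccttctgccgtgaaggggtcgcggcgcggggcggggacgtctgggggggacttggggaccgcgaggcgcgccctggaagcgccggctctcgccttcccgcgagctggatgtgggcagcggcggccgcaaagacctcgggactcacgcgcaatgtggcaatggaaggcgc
Hhip: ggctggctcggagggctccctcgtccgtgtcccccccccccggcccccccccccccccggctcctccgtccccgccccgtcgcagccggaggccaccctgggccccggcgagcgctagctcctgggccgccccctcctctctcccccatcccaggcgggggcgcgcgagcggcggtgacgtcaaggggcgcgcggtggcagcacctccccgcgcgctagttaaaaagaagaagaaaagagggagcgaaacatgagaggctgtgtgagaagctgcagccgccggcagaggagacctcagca
Hand2: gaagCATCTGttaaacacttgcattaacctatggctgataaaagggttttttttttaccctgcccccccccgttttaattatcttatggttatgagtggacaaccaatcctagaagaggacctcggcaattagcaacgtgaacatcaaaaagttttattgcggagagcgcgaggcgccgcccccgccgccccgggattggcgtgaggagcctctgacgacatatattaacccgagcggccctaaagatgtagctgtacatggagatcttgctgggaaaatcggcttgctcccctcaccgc

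The RefSeq table held windows for 8 of the 9 genes, all but Gli1. Each was searched on both strands for the GLI site GACCACCCA, the nuclear receptor half-site AGGTCA, the progesterone receptor half-site TGTTCT, the E-box CATCTG and the estrogen response element GGTCANNNTGACC, which can overlap the nuclear receptor half-site. Of 32851 windows in the table, 0.253% held the GLI site, 16.3% AGGTCA, 19.0% TGTTCT, 17.2% CATCTG and 23 windows the estrogen element. The 8 windows held CATCTG in Hand2, 246 bases before the start site, and in Gli3, 116 bases before it, and no other match. A lack of a match says only that these letters are not in the window.

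Of the 3 Gli factors, Gli1 and Gli3 were called lower in uterus. Gli1 (chr10:127329882-127341579), an activator that is itself a target, read 8.61, 8.67 and 8.46 in oil and 6.73, 6.86 and 6.53 in E2. The separation was wide against the spread of either group, at -1.87 (SE 0.11, adjusted p = 5.4e-07). Gli3 (chr13:15463723-15730026), which acts mostly as a repressor when the ligand is absent, read 8.34, 8.46 and 8.51 in oil and 7.70, 7.77 and 7.85 in E2. Its groups did not overlap, with a difference of -0.66 (SE 0.083, adjusted p = 0.00013). Gli2 (chr1:118834061-119054405), the main initial activator, read 7.64, 7.48 and 7.84 in oil and 7.47, 7.55 and 7.35 in E2. The Gli2 groups overlapped, and -0.20 (SE 0.10, interval -0.42 to 0.02, adjusted p = 0.18) was not called.

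The stromal factors both fell, Hand2 by more than Nr2f2. Hand2 (chr8:57320983-57324517), a basic helix-loop-helix factor, read 8.19, 8.28 and 8.40 in oil uterus and 7.57, 7.63 and 7.68 in E2 uterus. The groups were apart by more than their spread, at -0.66 (SE 0.075, adjusted p = 6.4e-05), a 1.58-fold fall. Nr2f2 (chr7:70351946-70366746), an orphan nuclear receptor, read 10.23, 10.26 and 10.31 in oil and 9.86, 10.06 and 10.02 in E2. Its groups did not overlap, but the 1.22-fold fall (-0.29, SE 0.079, adjusted p = 0.019) was lost on leaving out 1 array: without oil uterus replicate 3 it was -0.26 (adjusted p = 0.057) and without E2 uterus replicate 1 it was -0.23 (adjusted p = 0.078). In all, 8 of the 9 genes had E2 uterus samples entirely below the oil ones, as did 21.5% of all genes.

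Cell type markers moved with these falls in uterus, where 12.4% of all genes were called higher and 14.3% lower. Of 8 epithelial genes 7 rose, with a median of 0.94 over the list, and the mean level of the list went from 8.52 to 8.74 in oil to 9.57 to 9.70 in E2 (summed level, 11.83 to 12.05 and 12.91 to 13.04). Krt19, a keratin of simple epithelia, rose by 1.93 (SE 0.12, adjusted p = 5.6e-07). All 6 endothelial genes fell, with a median of -0.63, and the list went from 9.60 to 9.79 down to 9.00 to 9.11 (summed level, 12.29 to 12.52 and 11.68 to 11.78); leaving out 1 array gave 4 to 6 of them. Of 9 stromal genes 3 fell, Thy1 by 1.21 (SE 0.11, adjusted p = 1.5e-05), Col3a1 by 0.40 (adjusted p = 0.0027) and Vim by 0.23 (adjusted p = 0.008). The estimate was above 0 for 3 of the 9, with 0 called higher. The list median was -0.13, at mean levels of 10.84 to 10.91 in oil and 10.61 to 10.69 in E2 (summed level, 14.35 to 14.40 and 14.25 to 14.29). Smooth muscle genes rose in 2 of 7, in 6 without oil uterus replicate 3, in 3 without oil oviduct replicate 3, in 2 without E2 oviduct replicate 1, and in 1 without any other single array. Leukocyte genes rose in 2 of 5 (mean levels 7.47 to 8.04 in oil and 8.49 to 8.65 in E2), and mesothelial genes in 2 of 4, or in 0 without oil uterus replicate 2 or E2 uterus replicate 2 or 3. Of 6 ciliated-cell genes 1 fell, and 0 of 5 luteal genes were called. The ligand is epithelial and its targets stromal by background knowledge, and the part of these markers in the members' results was not tested.

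Around the members, 8 lists of related genes were counted in uterus, where 12.4% of all genes were called higher and 14.3% lower. In ligand release and spread, 1 of 7 rose and 3 fell, of which Scube1, Hhat and Dhh kept their call without any single array. Scube1, of a family of secreted proteins that help release lipid-modified hedgehog, read 8.82, 8.88 and 9.22 in oil and 7.34, 7.57 and 7.31 in E2. It fell by 1.57 (SE 0.12, adjusted p = 4.8e-06), with the groups well apart. Hhat, the enzyme that palmitoylates hedgehog, fell by 0.50 (SE 0.069, adjusted p = 0.00026). The other ligands gave -0.30 for Dhh (SE 0.067, adjusted p = 0.0053) and -0.01 for Shh, which was not called. Both genes read near the level of the Y-linked genes in both uterus groups, so these differences are uncertain in size.

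Among 6 reception genes 2 fell and 0 rose, and 1 rose without oil uterus replicate 3 or oil oviduct replicate 1. Lrp2, an endocytic receptor that can bind hedgehog among many other ligands, read 10.38, 9.83 and 9.97 in oil uterus and 5.57, 5.79 and 5.91 in E2 uterus. The groups were far apart, but the E2 samples were near the level of the Y-linked genes, so the fall of 4.30 (SE 0.23, adjusted p = 2.7e-07) is uncertain in size. Evc2, a ciliary partner of Smo, fell by 0.28 (SE 0.072, adjusted p = 0.013), and the co-receptors Cdon, Boc and Gas1 were not called. Of 11 genes of transduction and the cilium 4 fell, and Tulp3, Sufu and Kif3a kept their call without any single array. Sufu, which holds the Gli factors in the cytoplasm, fell by 0.37 (SE 0.068, adjusted p = 0.0017).

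Of 7 other hedgehog targets 1 rose and 3 fell, so the list did not move as Ptch1, Gli1 and Hhip did. With 1 array left out 2 to 3 fell, and without both oil replicate 3 arrays 2 fell. Foxf1, a mesenchymal forkhead factor, read 8.43, 8.42 and 8.25 in oil and 7.51, 7.45 and 7.50 in E2, a fall of 0.88 (SE 0.097, adjusted p = 5.4e-05). Mycn, a growth-promoting factor with many inputs besides hedgehog, read 5.63, 5.47 and 5.77 in oil and 7.92, 7.90 and 8.18 in E2. Its groups were apart in the opposite direction, with a rise of 2.38 (SE 0.11, adjusted p = 1e-07), from oil levels near those of the Y-linked genes. Ccnd2, a cyclin, fell by 0.98 (SE 0.15, adjusted p = 0.00042).

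Upstream of Ihh, 1 of 7 genes was called, and 2 without oil uterus replicate 2 or oil oviduct replicate 1 or 3. Egfr, the receptor for epidermal growth factor, fell by 0.67 (SE 0.080, adjusted p = 9.1e-05). Pgr, the progesterone receptor that induces Ihh, was at -0.40 and was not called (adjusted p = 0.079). Of 8 relatives and stromal targets of COUP-TFII 1 rose and 2 fell, with 2 rising without E2 uterus replicate 1 and 3 falling without oil uterus replicate 1. Wnt4, a ligand of decidualization, rose by 0.57 (SE 0.091, adjusted p = 0.00071), while the homeobox genes Hoxa11 and Hoxa10 fell by 0.92 (adjusted p = 3.9e-05) and 0.57 (adjusted p = 0.003). Bmp2, a decidual growth factor, was at -0.29 and was not called (adjusted p = 0.19). Of 9 possible partners of Hand2 5 fell, but 2 did without oil uterus replicate 1 or E2 uterus replicate 1 or 2, and 3 without oil uterus replicate 2, E2 uterus replicate 3 or E2 oviduct replicate 1 or 3. Among them Twist2, a related helix-loop-helix factor, fell by 0.87 (SE 0.078, adjusted p = 1.2e-05).

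Of 10 fibroblast growth factors and receptors below Hand2, 1 rose and 2 fell in uterus, where 12.4% and 14.3% of all genes were called higher and lower. These counts do not set the list apart from the rest. With 1 array left out 1 to 2 rose and 1 to 3 fell. Fgf9 rose by 0.52 (SE 0.096, adjusted p = 0.0019), and Fgf7, a stromal factor whose receptor is epithelial, fell by 0.64 (SE 0.14, adjusted p = 0.0052). Fgf7 read 5.66, 5.88 and 6.15 in E2 uterus, at or little above the level of the Y-linked genes, so its fall is uncertain in size. The median of the list was -0.11.

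**Figure D2:**
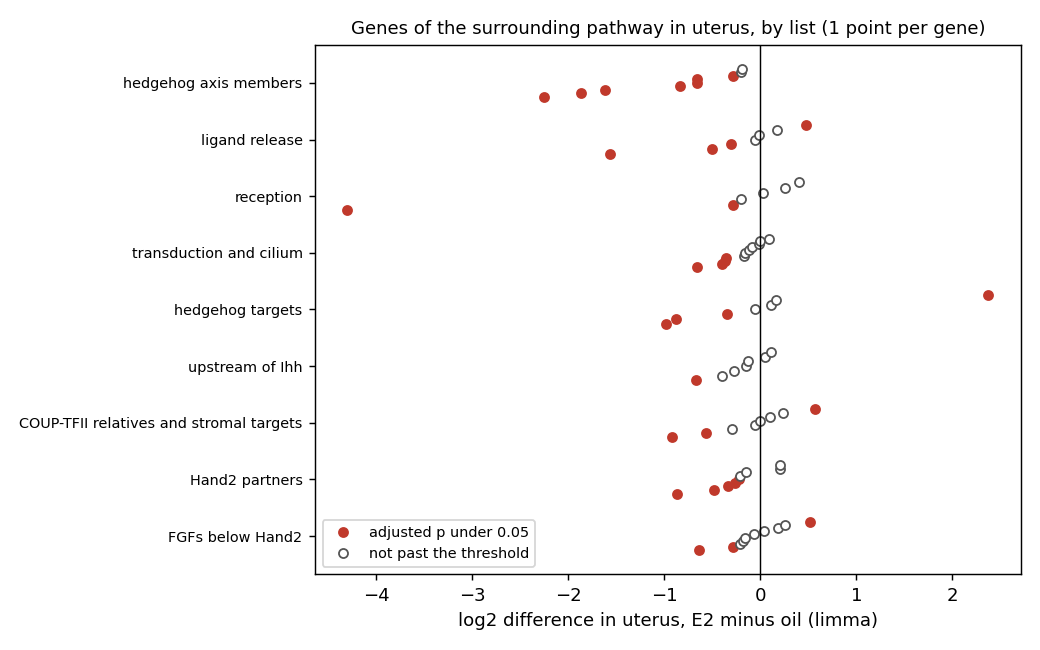
Log2 difference between E2 and oil uterus (horizontal axis) for every measured gene of the 9 members and the 8 surrounding lists (vertical axis), with 1 point per gene and filled points for an adjusted p under 0.05. The members lie left of 0, the outermost points being Lrp2 at -4.30 and Mycn at 2.38, both with 1 group near the level of the Y-linked genes.

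In oviduct, 0 of the 9 genes were called with E2, where limma called 0.291% of all genes. An unadjusted p under 0.05 was reached by 0 of the 9 and by 10.5% of all genes, so neither count sets the members apart from the rest. No array left out, and no other setting tried, gave a call for a member. The intervals bound what these arrays could show: -0.17 to 0.20 for Ptch1, -0.16 to 0.17 for Hand2, -0.11 to 0.24 for Nr2f2 and -0.31 to 0.18 for Gli1. That for Ihh was wider, at -0.66 to 0.19 around a difference of -0.23, and Hhip, at -0.39, had the largest error of the 9 (SE 0.28), so falls of such sizes are not excluded.

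Ptch1 read 9.68, 9.65 and 9.41 in oil oviduct and 9.54, 9.68 and 9.56 in E2 oviduct. Hand2 read 6.75, 6.87 and 6.77 in oil and 6.82, 6.70 and 6.88 in E2. Both pairs of groups overlapped, and both differences were 0.01. Ihh read 7.65, 8.15 and 7.23 in oil and 7.53, 7.41 and 7.39 in E2, and Hhip read 7.12, 7.67 and 6.30 in oil and 6.45, 6.91 and 6.53 in E2. The oil samples of both genes were spread wider than the E2 samples, with oil replicate 3 lowest; without both oil replicate 3 arrays the differences were -0.46 (adjusted p = 0.34) for Ihh and -0.76 (adjusted p = 0.12) for Hhip. Gli3 was the single member whose groups did not overlap, at 7.42, 7.20 and 7.13 in oil and 7.10, 7.09 and 7.11 in E2, where 17.4% of all genes had no overlap. With all arrays no gene of the 8 surrounding lists was called in oviduct. Lrp2 was at -0.84 there (SE 0.23, adjusted p = 0.21), with the groups apart, and was called without oil oviduct replicate 3 (-1.16, adjusted p = 0.011). Without both oil replicate 3 arrays Lrp2 (-1.16, adjusted p = 0.014) and Fgfr2 (-0.47, adjusted p = 0.046) were called.

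**Figure D3:**
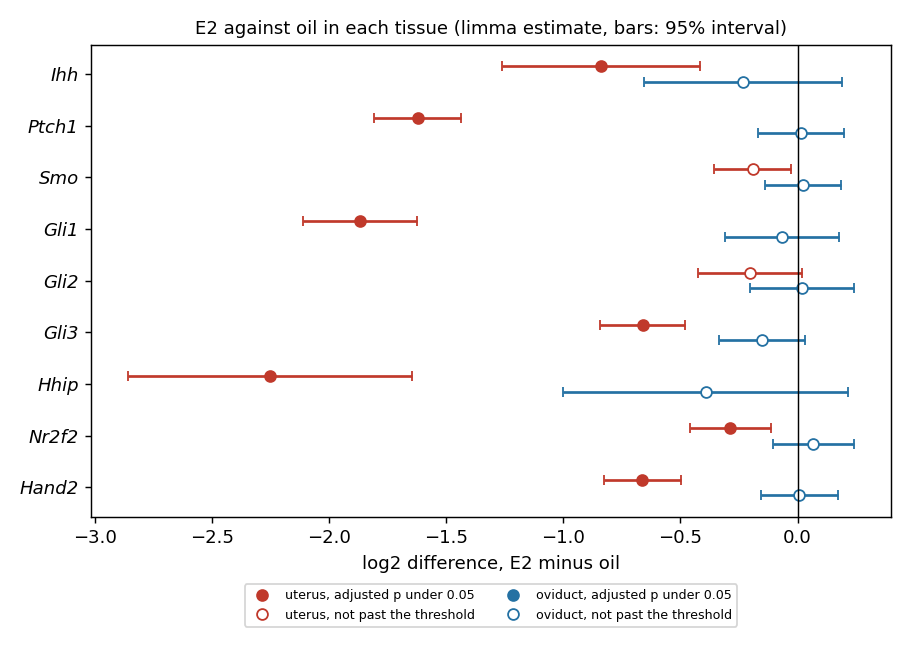
Log2 difference between E2 and oil (horizontal axis) for the 9 genes (vertical axis) in uterus and in oviduct, as limma estimates with 95% intervals and filled points for an adjusted p under 0.05. In uterus 7 genes lie below 0 with filled points, and in oviduct every point is open.

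The difference between the E2 effects of the organs was tested directly. It was called for 5 of the 9 genes, all with the larger fall in uterus, where 5.77% of all genes were called in that direction. The effect in oviduct minus that in uterus was 1.86 for Hhip (SE 0.39, adjusted p = 0.01), 1.80 for Gli1 (SE 0.16, adjusted p = 3.3e-05) and 1.64 for Ptch1 (SE 0.12, adjusted p = 1.4e-05). Hand2 followed at 0.67 (SE 0.11, adjusted p = 0.002) and Gli3 at 0.51 (SE 0.12, adjusted p = 0.016). These 5 calls held with each array left out in turn.

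For Ihh, Nr2f2, Smo and Gli2 the difference of effects was not called. Ihh was at 0.60 (interval 0.0076 to 1.20, adjusted p = 0.21), and without oil oviduct replicate 2, its highest array, the value was 0.84 (adjusted p = 0.031). Without both oil replicate 3 arrays Ihh was at 0.42 (adjusted p = 0.31). Nr2f2 was at 0.35 (adjusted p = 0.066), at 0.42 (adjusted p = 0.032) without oil oviduct replicate 1, and at 0.27 (adjusted p = 0.16) without both oil replicate 3 arrays. Among the surrounding lists the difference was called in every setting in which the gene was tested for Lrp2 at 3.46 (uncertain in size, as in uterus), Scube1 at 1.58, Foxf1 at 0.91, Twist2 and Hoxa11 at 0.87, Hhat at 0.47 and, with the opposite sign, Mycn at -2.28. Hoxa11 read 5.58, 5.66 and 5.74 in oil oviduct and 5.65, 5.49 and 5.69 in E2 oviduct, near the level of the Y-linked genes. A fall of Hoxa11 in oviduct could hardly show, so its difference is uncertain in size.

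Tissue differences split the axis. In oil, 6 of the 9 genes were lower in oviduct than in uterus and 0 were higher, where 21.5% and 17.3% of all genes were called lower and higher. Hand2 was 2.82-fold lower (-1.50, SE 0.075, adjusted p = 4.9e-08), and Gli1 (-1.37), Gli3 (-1.19) and Nr2f2 (-0.62) were lower with adjusted p of 1.8e-06, 5.7e-07 and 6.7e-05. Without both oil replicate 3 arrays the count was 4. The calls of Gli2 (-0.32, adjusted p = 0.027) and Ptch1 (-0.30, adjusted p = 0.015) were lost there, at -0.22 (adjusted p = 0.15) and -0.23 (adjusted p = 0.054). Gli2 also lost its call without oil uterus replicate 1 (-0.32) or 3 (-0.22) or oil oviduct replicate 2 (-0.26) or 3 (-0.32), and Ptch1 without oil uterus replicate 2 (-0.26) or oil oviduct replicate 3 (-0.21). Ihh (0.20), Smo (0.01) and Hhip (-0.44) were not called, though Hhip was without oil oviduct replicate 2 (-0.76, adjusted p = 0.029). Cell type markers moved with this. Stromal genes were lower in oviduct in 7 of 9 (list median -0.57), endothelial in 6 of 6 (median -1.02) and leukocyte in 2 of 5. Epithelial genes were higher in 7 of 8 (6 without both oil replicate 3 arrays), mesothelial in 3 of 4 and ciliated-cell in 6 of 6. Their part in the result was not tested.

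Under E2 the order of the organs turned for Ptch1 and Gli1, which were lower in oviduct in oil and higher there in E2. These values share the E2 arrays with the comparisons above and are not independent of them. Ptch1 was 1.34 higher in oviduct than in uterus (adjusted p = 3.6e-07), Hhip 1.42 higher (adjusted p = 0.0019), Ihh 0.81 higher (adjusted p = 0.0065), Gli1 0.43 higher (adjusted p = 0.01) and Smo 0.22 higher (adjusted p = 0.036). Hand2 stayed lower at -0.83 (adjusted p = 6.8e-06), Gli3 at -0.68 (adjusted p = 6.8e-05) and Nr2f2 at -0.27 (adjusted p = 0.022), and Gli2 was not called. The 5 higher and 3 lower genes compare with 15.2% and 18.9% of all genes. The Smo call was lost without E2 uterus replicate 1 (0.20), 2 (0.25) or 3 (0.23) or E2 oviduct replicate 1 (0.15), and the Nr2f2 call without E2 uterus replicate 2 (-0.22) or 3 (-0.25) or E2 oviduct replicate 2 (-0.27) or 3 (-0.25). Among the markers under E2, stromal genes were lower in oviduct in 6 of 9 and higher in 1, smooth muscle lower in 5 of 7 (1 to 7 with 1 array left out), endothelial lower in 4 of 6 and leukocyte lower in 4 of 5. Ciliated-cell genes were higher in 6 of 6 and mesothelial in 3 of 4 (1 to 4 with 1 array left out), and epithelial genes were higher in 2 of 8 and lower in 2. Their part in these tissue differences was not tested.

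**Figure D4:**
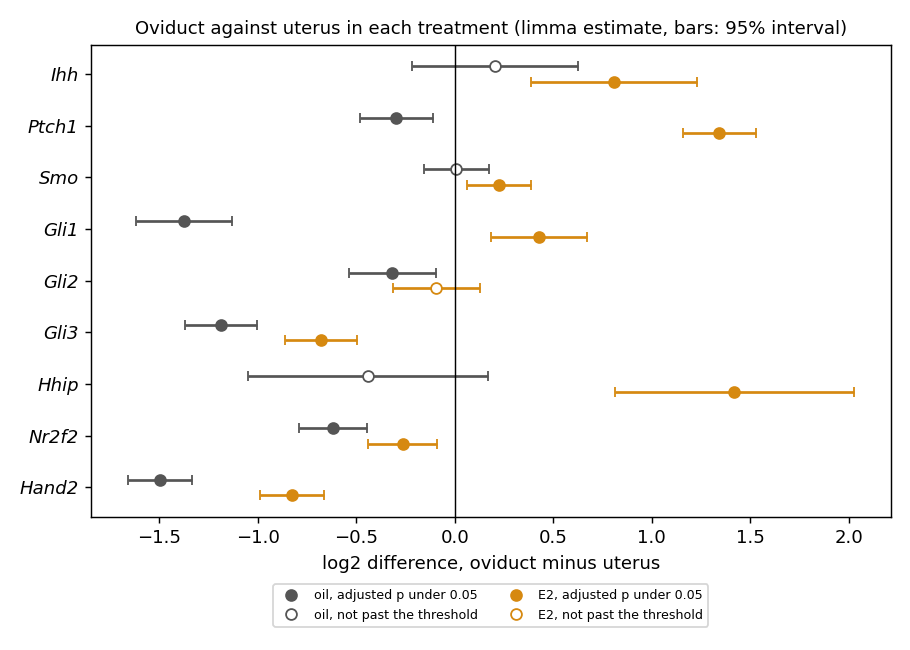
Log2 difference between oviduct and uterus (horizontal axis) for the 9 genes (vertical axis) in oil and in E2, as limma estimates with 95% intervals and filled points for an adjusted p under 0.05. Ptch1 and Gli1 lie below 0 in oil and above 0 in E2, and Hand2 and Gli3 lie below 0 in both.

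Ptch1 was highest in oil uterus (9.87 ± 0.060, SD, n = 3), then in E2 oviduct (9.59 ± 0.073) and oil oviduct (9.58 ± 0.15), which did not differ beyond their spread, and lowest in E2 uterus (8.25 ± 0.093). Gli1 ran in the same order of tissues, at 8.58 ± 0.11 in oil uterus, 7.20 ± 0.21 and 7.14 ± 0.013 in oil and E2 oviduct and 6.71 ± 0.17 in E2 uterus. Hand2 had another order, with oil uterus at 8.29 ± 0.11, E2 uterus at 7.63 ± 0.054, and both oviduct groups, at 6.79 ± 0.064 and 6.80 ± 0.088, within their spread of each other. Ihh was 7.68 ± 0.46 in oil oviduct, 7.47 ± 0.098 in oil uterus and 7.44 ± 0.079 in E2 oviduct, none of them apart from the next beyond its spread, and 6.64 ± 0.27 in E2 uterus.

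Of the 10 fibroblast growth factors and receptors, 9 were higher in oviduct than in uterus in oil, where 17.3% of all genes were called higher. The count was also 9 without both oil replicate 3 arrays. Any link to the lower Hand2 in oviduct was not tested. The marker lists moved in the same comparison, with ciliated-cell genes higher in 6 of 6, epithelial in 7 of 8 and mesothelial in 3 of 4, and stromal genes lower in 7 of 9 and endothelial in 6 of 6. Their part in the result was not tested. Fgf1 was 2.39 higher (SE 0.24, adjusted p = 1.1e-05), Fgf18 1.02 higher (SE 0.12, adjusted p = 4.6e-05) and Fgfr2, a receptor of epithelial cells, 0.83 higher (SE 0.10, adjusted p = 4.8e-05). Fgf10, another stromal ligand, was 0.63 higher (SE 0.15, adjusted p = 0.0061).

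The genes most like 3 of the members over the 12 arrays were found by the root mean square distance between log2 profiles centred on their means, among 10028 genes above the median level. For Ihh these were Slc25a48 (0.149), Atp1b1 (0.178) and Paqr3 (0.191). Nr2f2 was nearest to Adpgk (0.046), Dennd5a (0.056) and Sufu (0.069), and Hand2 to Pth1r (0.0997), Col18a1 (0.105) and Vstm4 (0.107).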

How the data were processed

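The deposited table holds 1 intensity per probe set and array, made by the authors with RMA per the submitters' processing notes, which name no version. The values are linear and were log2 transformed. Of 35556 probe sets 21789 carry a single gene symbol in the platform annotation, 1621 several and 12146 no listed gene, and 21698 of the single-symbol sets matched GRCm38.p6 by gene ID. Each of the 19938 genes was taken from its probe set with the highest mean; 999 had several.

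Groups were fitted together in limma 3.58.1 (R 4.3.3; lmFit, contrasts, eBayes; two-sided) with 4 group means, and p-values were adjusted over all genes by Benjamini-Hochberg. Exact tests of 3 arrays against 3 cannot go below p = 0.10 and were not used. The script was tested on simulated data.

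The members and all gene lists were chosen with earlier results of these data known. The 9 members are always named; from each list, up to 5 genes called in uterus with the largest change were eligible, and those whose call ended on leaving out 1 array are counted but mostly not named. Cell-type and uncalled genes were named for their role, after their values were seen. Alternatives were a pseudocount of 16, quantile normalization, median centring, the mean of a gene's probe sets, a filter on dim genes, a trended variance, array weights, a replicate block, separate fits, and arrays left out.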

Additional observations from a re-analysis of the deposited data

Results flagged for a closer look

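For 5 of the 9 genes the E2 effect differed between the organs by a direct test of the difference, the interaction contrast in limma. The effect in oviduct minus that in uterus, on the log2 scale, was 1.86 for Hhip (adjusted p = 0.01), 1.80 for Gli1 (adjusted p = 3.3e-05), 1.64 for Ptch1 (adjusted p = 1.4e-05), 0.67 for Hand2 (adjusted p = 0.002) and 0.51 for Gli3 (adjusted p = 0.016). In each case all 3 E2 uterus samples were below all 3 oil uterus samples, as for 21.5% of all genes. The test of the difference used these same samples, so the separation adds nothing to it. Without both oil replicate 3 arrays the values were 1.65 for Hhip, 1.74 for Gli1, 1.58 for Ptch1, 0.60 for Hand2 and 0.41 for Gli3 (adjusted p = 0.044).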

How the results depend on the processing

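The number of the 9 genes called ran from 6 to 8 in uterus (7 as reported), was 0 in oviduct throughout, from 5 to 6 for the difference of effects, from 4 to 6 between tissues in oil and from 6 to 9 in E2. The calls of Ihh, Ptch1, Gli1, Gli3, Hhip and Hand2 in uterus held in all 23 settings, and no called value of a member changed sign. Over all genes, array weights gave 8214 calls in uterus (5332 as reported), 4531 for the difference of effects (2288) and 10554 between tissues in E2 (6793). The 58 calls in oviduct became 10 when oviduct was fitted alone, 14 with a replicate block within tissue, 264 with array weights, 121 without both oil replicate 3 arrays, and 14 to 67 with 1 array left out. The labels do not say whether equal replicate numbers came from the same mouse, and the data did not settle it. The 18 same-number correlations ran from -0.22 to 0.26, 5 over 0.1, and in 6 of the 18 comparisons the same number correlated best. Many of these join oil with E2 samples, which no mouse can share. Between organs of the same treatment, oil replicate 3 (0.26) and E2 replicate 1 (0.26) matched their own number best, and the other numbers did not. With a replicate block 5318 genes and 7 members were called in uterus, 39 genes in oviduct and 2218 for the difference. The difference for Nr2f2 was called with the intensity filter (adjusted p = 0.033), quantile normalization (0.047), the pseudocount (0.044) and a trended variance (0.032), and that for Ihh with array weights (0.034). Of 22 settings, the difference stayed uncalled in 17 for Nr2f2 and in 20 for Ihh. The causes were not tested. Signal near the level of Y-linked genes limits Hhip, Lrp2 and Fgf7 in E2 uterus and Mycn in oil uterus. It also limits Dhh and Shh in both uterus groups and Hoxa11 in both oviduct groups.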

Other observations

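In oil oviduct Ihh, Hhip and Gli1 took the same order over the 3 samples, highest in replicate 2 and lowest in replicate 3. These 3 were picked from the 9 after their values were seen. Of the others, Ptch1, Gli2, Gli3 and Nr2f2 were highest in replicate 1, Smo in replicate 3 and Hand2 in replicate 2, with Hand2 lowest in replicate 1. The values were 8.15, 7.65 and 7.23 for Ihh in the order of replicates 2, 1 and 3, 7.67, 7.12 and 6.30 for Hhip, and 7.35, 7.30 and 6.96 for Gli1. Replicate 3 lay 1.10 below the mean of the other oil oviduct samples for Hhip, 0.67 for Ihh and 0.36 for Gli1, and it is the sample with the high luteal and ovarian genes. On that array the ciliated-cell list was also higher, at 9.24 against 8.54 and 8.27 in replicates 1 and 2. The stromal list was lower there (10.12 against 10.37 and 10.37), as were the endothelial (8.42 against 8.70 and 8.63) and leukocyte lists (6.95 against 7.46 and 7.39). The part of tissue content in the values of Hhip, Ihh and Gli1 was not tested.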
